A study of Homo sapiens with 30 samples.

Results

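The expression of 10 immediate early genes was followed across neuroblastoma cells that had received antisense oligonucleotides (ASOs) directed at NESPR, a long non-coding RNA. The 10 genes are 7 that encode the FOS and JUN proteins (FOS, FOSB, FOSL1, FOSL2, JUN, JUNB and JUND) and 3 others that cells also switch on within minutes of a stimulus (EGR1, IER2 and SGK1). They were chosen by name, with their differences between ASO-treated and control-treated cells in these data already known, out of 62710 genes listed for IMR32 and 57905 listed for NGP and for SK-N-BE(2)c. IMR32, NGP and SK-N-BE(2)c are established human neuroblastoma lines. Cells were transfected by lipofection with 100 nM of 1 ASO, and RNA was sequenced. In IMR32 the groups were ASO1, ASO2 and a negative control ASO (NCA), with 4 libraries each. NGP and SK-N-BE(2)c had ASO2, ASO10 and NCA, with 3 libraries each, which makes 30 libraries in 9 groups. All groups, the controls included, received an oligonucleotide with lipofectamine and were harvested by trypsin. No untransfected group was analysed here. NESPR levels were not analysed here.

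AP-1 is a transcription factor made of pairs of bZIP proteins, which hold each other by a leucine zipper and grip DNA with a basic region. JUN proteins pair with each other or with a FOS protein, while FOS proteins need a JUN partner. FOS, EGR1, IER2 and JUNB are transcribed from existing factors without new protein synthesis when growth factor, calcium or stress kinases act on SRF, ELK1 and CREB at their promoters, and their mRNAs are short-lived. In neuronal cells FOS and EGR1 are widely used as marks of recent stimulation. SGK1, a kinase that acts on ion channels and on FOXO factors, is induced both by serum and by glucocorticoids.

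The promoter windows of 6 members are shown. For FOS, JUNB, EGR1 and IER2 every ASO library stood above all NCA libraries of its line, and for FOSL2 and JUND not every one did. Nor did every one for FOSB, JUN and SGK1, whose windows were searched but are not shown. Each run is the 250 bases before the RefSeq start site on the GRCh38.p14 assembly, which is not the build named for the deposited counts. It is written 5′ to 3′ on the strand of the gene, with searched motifs in capitals.

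FOS, chr14:75278578-75278827, plus strand: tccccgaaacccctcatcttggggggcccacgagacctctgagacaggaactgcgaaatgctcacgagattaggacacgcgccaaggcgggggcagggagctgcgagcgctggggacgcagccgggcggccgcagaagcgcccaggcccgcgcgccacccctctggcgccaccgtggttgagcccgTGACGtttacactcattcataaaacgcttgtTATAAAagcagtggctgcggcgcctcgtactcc

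JUNB, chr19:12791236-12791485, plus strand: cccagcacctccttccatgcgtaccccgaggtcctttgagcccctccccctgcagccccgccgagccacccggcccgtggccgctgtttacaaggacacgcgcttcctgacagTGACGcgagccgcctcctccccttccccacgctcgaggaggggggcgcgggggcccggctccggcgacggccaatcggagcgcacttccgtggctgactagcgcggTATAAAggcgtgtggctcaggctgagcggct

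EGR1, chr5:138465229-138465478, plus strand: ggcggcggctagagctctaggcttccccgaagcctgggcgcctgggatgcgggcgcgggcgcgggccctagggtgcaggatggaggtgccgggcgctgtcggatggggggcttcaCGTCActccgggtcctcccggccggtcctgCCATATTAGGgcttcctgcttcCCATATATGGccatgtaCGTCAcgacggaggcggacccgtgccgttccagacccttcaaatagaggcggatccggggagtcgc

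IER2, chr19:13150161-13150410, plus strand: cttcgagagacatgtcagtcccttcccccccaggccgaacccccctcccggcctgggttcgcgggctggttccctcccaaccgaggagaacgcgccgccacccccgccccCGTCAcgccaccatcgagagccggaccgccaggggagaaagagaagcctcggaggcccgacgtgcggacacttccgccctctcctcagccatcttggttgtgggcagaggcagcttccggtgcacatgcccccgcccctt

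FOSL2, chr2:28392608-28392857, plus strand: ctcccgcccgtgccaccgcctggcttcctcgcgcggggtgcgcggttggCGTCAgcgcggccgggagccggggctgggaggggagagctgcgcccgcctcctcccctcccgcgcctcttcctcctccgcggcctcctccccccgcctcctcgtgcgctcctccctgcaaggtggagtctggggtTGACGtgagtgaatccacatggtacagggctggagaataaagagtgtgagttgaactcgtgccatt

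JUND, chr19:18281623-18281872, minus strand: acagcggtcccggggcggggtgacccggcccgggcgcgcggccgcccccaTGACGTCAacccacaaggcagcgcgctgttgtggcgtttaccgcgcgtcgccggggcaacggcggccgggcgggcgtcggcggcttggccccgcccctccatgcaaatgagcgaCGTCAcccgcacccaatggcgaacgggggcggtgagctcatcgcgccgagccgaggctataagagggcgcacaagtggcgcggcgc

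Both strands were searched for TGACG (the core bound by CREB and ATF proteins), TGACNTCA and TGANTCA (the longer and shorter AP-1 type sites), the CArG box bound by SRF, and TATAAA. A TGACNTCA with G at its open base also holds TGACG. Windows were found for 9 of the 10 members, and SGK1 had 3 start sites. TGACG stood in 8 of these 9 members, all but SGK1, and in 21.2% of 34788 RefSeq windows of the same length. Its first base lay 64 bases before the start in FOS, 137 in JUNB, 140 in IER2, 135 and 66 in EGR1, 201 and 66 in FOSL2, and 200, 197 and 86 in JUND. CArG boxes were found in EGR1 alone, with first bases 105 and 83 before the start, against 1.17% of all windows. Bases further upstream than these 250 were not searched, so a motif not found may still lie there. TATAAA stood in 4 members (FOS, FOSB, JUNB and SGK1) and in 10.8% of windows. TGACNTCA stood in 2 members, JUN and JUND, and in 6.84% of windows, and TGANTCA in 0 members and 6.59% of windows. All 6 windows shown thus hold TGACG, and those of FOS and JUNB alone among them also hold TATAAA. A match is a description of the letters and not a measured binding site.

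IMR32 libraries held 9393587 to 13932379 recovered reads, NGP libraries 11591178 to 13795561 and SK-N-BE(2)c libraries 11497829 to 15060356. Mitochondrial genes took 4.25% to 8.41% of the values. The tables hold normalized counts (read counts divided by 1 size factor per library). IMR32 was scaled on its own, and no level is compared between it and another line. Labels number the replicates without saying whether the cultures were separate, so p-values measure the spread between these libraries, which may be technical. All 12 adrenergic neuroblastoma markers, HAND2 and CHGA among them, had group means of at least 10 in every group, and 4 to 7 of 12 mesenchymal markers did, with TWIST2 at 0 in every library. The adrenergic markers' summed level was lower in the ASO libraries than in NCA libraries in each line, for example 50770 to 55964 against 60362 to 62444 in NGP. By limma (adjusted p under 0.05), 1 of the 12 was higher and 4 lower with each ASO in IMR32. In NGP 1 was higher and 6 lower with ASO2, and 1 and 10 with ASO10. In SK-N-BE(2)c 3 were higher and 7 lower with ASO2, and 0 and 9 with ASO10. Shares of all genes higher were 13.6%, 17.6%, 30.6%, 26.8%, 33.6% and 27.8% in that order. Those lower were 14.4%, 14.8%, 28.1%, 27.6%, 33.4% and 31.1%. The mesenchymal sum was higher with ASO2 in SK-N-BE(2)c, at 7992 to 8750 against 6601 to 7107 with NCA. THY1 led it there, with a mean of 6840 against 5088 with NCA, while TWIST1 stood at 725 against 780. The mean sum was 8364 against 6776, a rise no larger than that of THY1. By limma (adjusted p under 0.05), 1 of 4 markers tested there was higher and 1 lower, against 33.6% and 33.4% of all genes. In IMR32 the sum was lower with ASO1 (2101 to 2309) and ASO2 (2372 to 2646) than with NCA (2730 to 2915). It was also lower with ASO10 in NGP, at 2520 to 2609 against 2865 to 3038. It overlapped with NCA for ASO2 in NGP and for ASO10 in SK-N-BE(2)c. Of 16 markers of blood, endothelial, epithelial, glial and stromal cells, CD3E was at 0 in every library. The sum of the 16 was 846 to 967 with ASO1, 977 to 1146 with ASO2 and 780 to 880 with NCA in IMR32. It was 350 to 386 with ASO2, 565 to 659 with ASO10 and 231 to 260.4 with NCA in NGP, and 471 to 483 with ASO2, 349 to 383 with ASO10 and 312 to 335 with NCA in SK-N-BE(2)c. CD79A led it with ASO10 in NGP (mean 303), DCN with ASO2 in SK-N-BE(2)c (356) and COL1A1 in IMR32. Their part in the results below was not tested.

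In control-treated cells each JUN protein's gene stood above every FOS protein's gene in level per length of exon. JUND, the JUN protein found in most resting cells, ranked first in all 3 lines, at 641 normalized counts per kb (IMR32), 735 (NGP) and 722 (SK-N-BE(2)c). FOS stood at 14.1, 77.8 and 22 per kb in the same order, and FOSB at 6.78, 9.31 and 3.45. FOSL2 was the highest of the FOS genes, at 22.8, 126 and 151 per kb. FOSL1 was the lowest of the 10 in each line, at 1.27, 5.53 and 0.875 per kb. The order in IMR32 was JUND, JUN, IER2, JUNB, EGR1, FOSL2, FOS, FOSB, SGK1 and FOSL1, and of these neighbours only FOSB and SGK1 overlapped between libraries. In NGP the order was JUND, JUNB, JUN, IER2, FOSL2, EGR1, FOS, FOSB, SGK1 and FOSL1. There JUNB, JUN and IER2 overlapped from neighbour to neighbour, as did EGR1 with FOS, and FOSB, SGK1 and FOSL1. SK-N-BE(2)c differed in its place for SGK1, which stood sixth at 71.1 per kb, beside EGR1 at 69.9, with overlapping libraries. The lengths merge all annotated exons of a gene, 9992 bases for SGK1. By deposited value SGK1 stood at rank 7 in IMR32 and 8 in NGP, against 9 per kb in both.

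**Figure D1:**
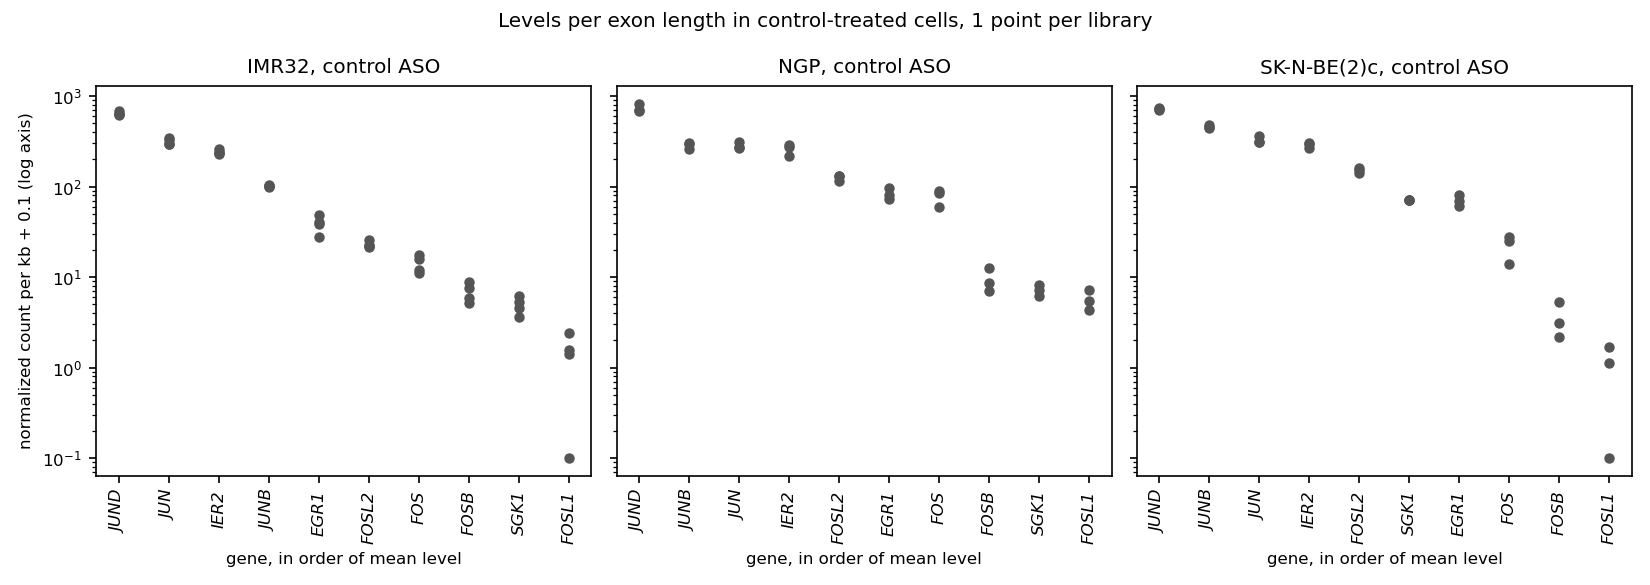
Normalized counts per kb of exon (plus 0.1, log axis) of the 10 genes in NCA-treated cells of the 3 lines, 1 point per library, genes in order of their mean within each line. JUND leads each panel and FOSL1 ends it, and SGK1 stands sixth in SK-N-BE(2)c; IMR32 was scaled separately from the other lines.

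FOS (ENSG00000170345), a subunit of AP-1, was higher in every ASO library than in any NCA library of its line. Normalized counts in IMR32 were 38.9, 35.8, 57.1 and 50.5 with NCA, 113, 197, 157 and 142 with ASO1, and 76.3, 139, 128 and 141 with ASO2. In NGP they were 288, 276 and 192 with NCA, 547, 583 and 525 with ASO2, and 662, 707 and 668 with ASO10. SK-N-BE(2)c gave 88.9, 80.7 and 44.3 with NCA, 334, 292 and 295 with ASO2, and 154, 230.1 and 140.2 with ASO10. Because whole cultures were sequenced, more cells with FOS mRNA and more FOS mRNA per cell cannot be told apart, and this holds for every gene below. The log2 fold change against NCA was 1.72 ± 0.19 (SE) with ASO1 and 1.37 ± 0.19 with ASO2 in IMR32. It was 1.15 ± 0.11 with ASO2 and 1.45 ± 0.11 with ASO10 in NGP, and 2.15 ± 0.19 and 1.31 ± 0.19 in SK-N-BE(2)c. FOS thus had the largest difference of the 9 genes tested in SK-N-BE(2)c with both ASOs.

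FOSB (ENSG00000125740) was a low gene with a wide spread between controls. IMR32 libraries held 31.9, 28.4, 41.7 and 48.7 normalized counts with NCA, 119.5, 182, 192 and 175 with ASO1, and 76.3, 97, 102 and 125 with ASO2. NGP libraries held 70.1, 47 and 37.9 with NCA, 96.5, 97.7 and 85.7 with ASO2, and 58.1, 64.7 and 74 with ASO10. The SK-N-BE(2)c values were 16.7, 29.2 and 11.6 with NCA, 56.4, 61.6 and 49.2 with ASO2, and 42.8, 36.8 and 27.5 with ASO10. The groups overlapped with NCA for ASO10 in both lines and for no other ASO group. FOSB was 2.13 ± 0.18 and 1.40 ± 0.18 (log2, SE) above NCA with ASO1 and ASO2 in IMR32, and 0.88 ± 0.20 and 0.38 ± 0.20 above it with ASO2 and ASO10 in NGP. The difference in SK-N-BE(2)c was 1.58 ± 0.28 with ASO2 and 0.94 ± 0.28 with ASO10. NGP with ASO10 rests on single control libraries: its log2 value was 0.18 without NCA replicate 3 and 0.62 without NCA replicate 1.

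FOSL1 (ENSG00000175592) and FOSL2 (ENSG00000075426) encode FRA1 and FRA2, FOS proteins without the transactivation domain of FOS. FOSL1 was nearly silent in IMR32, at 0 to 9.14 normalized counts, and in SK-N-BE(2)c, at 0 to 6, and was not tested there because its mean was under 10. NGP libraries held 10, 7.98 and 13.3 normalized counts of FOSL1 with NCA, 20.4, 20.7 and 37.8 with ASO2, and 32.6, 25.7 and 29.6 with ASO10, with no overlap. It was 2.34-fold higher with ASO2 and 2.68-fold higher with ASO10, with an SE of 0.31 on the log2 scale for each.

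FOSL2 lay above its controls with ASO1 and ASO2 and below them with ASO10. IMR32 libraries held 157, 160.4, 181 and 154 normalized counts with NCA, 285, 302, 327 and 272 with ASO1, and 194, 208, 211 and 211 with ASO2. NGP libraries held 824, 941 and 938 with NCA, 1261, 1246 and 1298 with ASO2, and 784, 762 and 761 with ASO10. SK-N-BE(2)c libraries held 1158, 1078 and 1008 with NCA, 1200.0, 1183 and 1195 with ASO2, and 689, 755 and 746 with ASO10. None of these groups overlapped with its controls. The log2 fold changes were 0.86 ± 0.08 (SE) and 0.34 ± 0.08 in IMR32 with ASO1 and ASO2, 0.50 ± 0.07 and -0.23 ± 0.07 in NGP with ASO2 and ASO10, and 0.14 ± 0.07 and -0.57 ± 0.07 in SK-N-BE(2)c. The value for ASO2 in SK-N-BE(2)c was 0.01 after libraries were brought to 1 common total.

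JUN (ENSG00000177606), the partner that gives AP-1 much of its activity and a substrate of JNK kinases, was an abundant gene. IMR32 libraries held 1057, 1049, 1210.3 and 1160.3 normalized counts with NCA, 2119, 2695, 2870.1 and 2460.4 with ASO1, and 1499.8, 1880.4, 1875 and 1941 with ASO2. NGP libraries held 964, 1091 and 934 with NCA, 1270.0, 1209.5 and 1280.4 with ASO2, and 1522, 1606 and 1458 with ASO10. The values for SK-N-BE(2)c were 1271, 1104 and 1109 with NCA, 1276, 1202 and 1236 with ASO2, and 1604, 1719 and 1499.5 with ASO10. Only ASO2 in SK-N-BE(2)c overlapped with its controls. JUN was 1.17 ± 0.08 and 0.68 ± 0.08 (log2, SE) above NCA with ASO1 and ASO2 in IMR32, and 0.33 ± 0.07 and 0.62 ± 0.07 above it with ASO2 and ASO10 in NGP. It was 0.47 ± 0.07 above NCA with ASO10 in SK-N-BE(2)c, and the value for ASO2, 0.09 ± 0.07, turned to -0.04 after rescaling to the same total.

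JUNB (ENSG00000171223), which can restrain JUN at some promoters, had the narrowest range of differences of the 4 genes that were higher in every ASO group and had no overlap with NCA in any line. IMR32 libraries held 181, 184, 185 and 189 normalized counts with NCA, 281, 365, 404 and 342 with ASO1, and 260.5, 305, 288 and 249 with ASO2. NGP libraries held 537, 552 and 469.7 with NCA, 1053, 973 and 951 with ASO2, and 969, 956 and 897 with ASO10. JUNB in SK-N-BE(2)c stood at 882, 837 and 809.6 with NCA, 1886, 1618 and 1453 with ASO2, and 1334, 1356 and 1267 with ASO10. The 6 log2 fold changes of JUNB lay between 0.57 and 0.96, with the lowest for ASO2 in IMR32 and the highest for ASO2 in SK-N-BE(2)c. JUND (ENSG00000130522), by contrast, had log2 fold changes of -0.24 to 0.32. Its normalized counts in IMR32 were 1157 to 1262 with NCA, 1472 to 1518 with ASO1 and 1419 to 1528 with ASO2. In SK-N-BE(2)c the direction was the other way, with 1317 to 1371 for NCA, 1129 to 1306 for ASO2 and 1055 to 1270.3 for ASO10. NGP libraries of JUND overlapped with NCA for both ASOs. The JUND value for ASO2 in NGP, 0.16, was 0.09 after rescaling to the same total and 0.25 without NCA replicate 2.

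EGR1 (ENSG00000120738), a zinc finger factor that acts beside AP-1, was higher in every ASO library than in the controls of its line. IMR32 libraries held 86.1, 127, 150.5 and 121 normalized counts with NCA, 252, 308, 349.8 and 279.9 with ASO1, and 238, 352, 339.5 and 379 with ASO2. NGP libraries held 303, 254 and 227 with NCA, 479, 439 and 396 with ASO2, and 506, 441 and 542 with ASO10. EGR1 in SK-N-BE(2)c stood at 215, 254 and 189.9 with NCA, 509, 431 and 513 with ASO2, and 351, 376 and 314 with ASO10. The log2 fold changes of EGR1 were 1.30 ± 0.15 and 1.43 ± 0.15 (SE) in IMR32, 0.75 ± 0.11 and 0.93 ± 0.11 in NGP, and 1.14 ± 0.11 and 0.66 ± 0.11 in SK-N-BE(2)c, in the order ASO1, ASO2 or ASO2, ASO10.

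IER2 (ENSG00000160888), a nuclear protein induced with FOS, was likewise higher in every ASO library, by less than EGR1 in IMR32. There its libraries held 702, 718, 801 and 731 normalized counts with NCA, 894 to 973 with ASO1 and 909.5 to 942 with ASO2. NGP libraries held 877, 851 and 667 with NCA, 1305, 1349 and 1347 with ASO2, and 1315, 1291 and 1190.3 with ASO10. SK-N-BE(2)c libraries held 933, 914 and 813 with NCA, 1784, 1549 and 1609 with ASO2, and 1154, 1203 and 1199 with ASO10. No ASO library of IER2 overlapped with its controls. The log2 fold changes were 0.34 ± 0.05 and 0.32 ± 0.05 (SE) in IMR32, 0.75 ± 0.08 and 0.67 ± 0.08 in NGP, and 0.89 ± 0.07 and 0.42 ± 0.07 in SK-N-BE(2)c.

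SGK1 (ENSG00000118515) had both the largest difference of the 9 genes tested in IMR32 and a lower level with ASO10 in SK-N-BE(2)c. IMR32 libraries held 35.4, 51.8, 45 and 61.6 normalized counts with NCA, 198, 280.1, 272 and 219 with ASO1, and 101, 156, 163 and 175 with ASO2. NGP libraries held 71, 80.6 and 60.5 with NCA, 201, 163 and 234 with ASO2, and 125, 114 and 116 with ASO10. SK-N-BE(2)c libraries held 708, 718 and 705 with NCA, 1025, 1013 and 1123 with ASO2, and 579, 545 and 524 with ASO10. The groups of SGK1 did not overlap in any line. Its log2 fold change was 2.31 ± 0.17 (SE) with ASO1 and 1.60 ± 0.17 with ASO2 in IMR32, and 1.48 ± 0.15 with ASO2 and 0.75 ± 0.15 with ASO10 in NGP. The SK-N-BE(2)c values were 0.57 ± 0.07 for ASO2 and -0.37 ± 0.07 for ASO10.

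**Figure D2:**
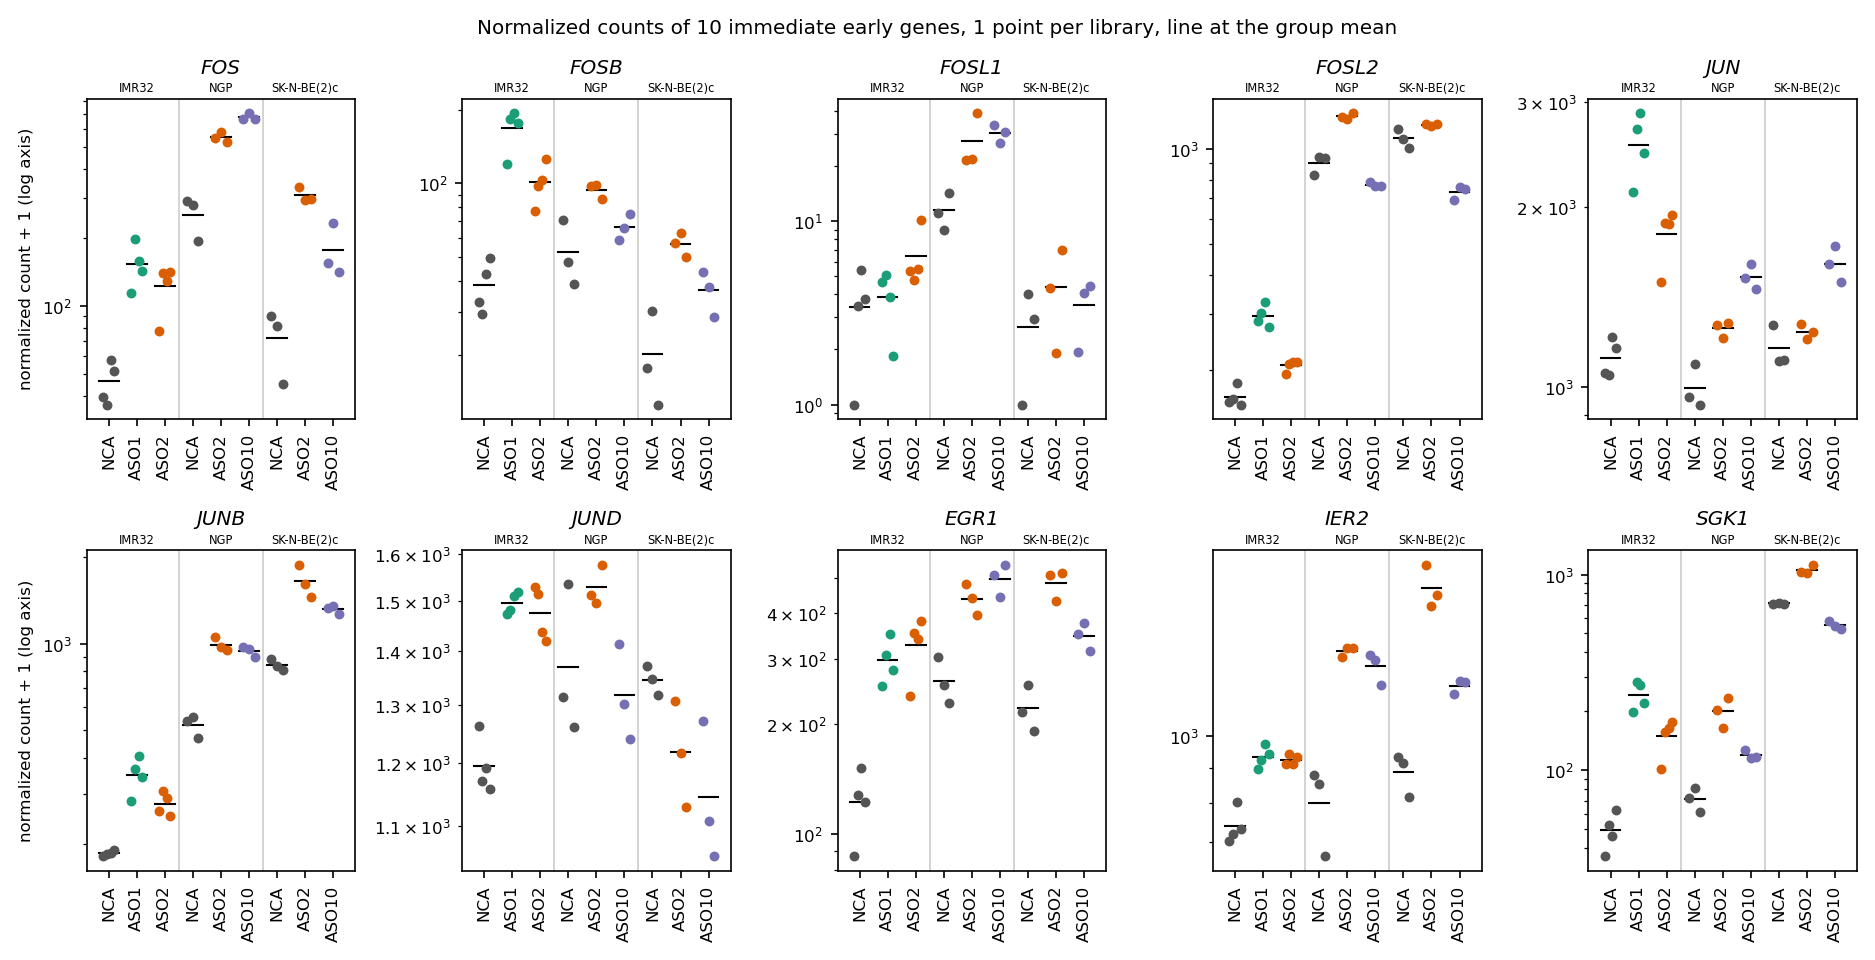
Normalized counts (plus 1, log axis) of the 10 genes in all 30 libraries, 1 point per library, with a line at each group mean and a panel per gene. FOS, JUNB, EGR1 and IER2 lie above their NCA libraries in every ASO group, while FOSL2 lies below them with ASO10 and JUND shows small differences of both signs.

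Because these contrasts chose the genes, the counts against NCA are a description. At an adjusted p under 0.05 (limma on log2 values, Benjamini-Hochberg over all genes), 9 of the 9 members tested were higher with ASO1 in IMR32, where 13.6% of all genes tested were higher and 14.4% lower. All 9 were higher with ASO2 too, where 17.6% of all genes were higher and 14.8% lower. In NGP 10 of 10 were higher with ASO2, against 30.6% higher and 28.1% lower among all genes. With ASO10 in NGP 7 were higher and 1, FOSL2, was lower, against 26.8% and 27.6%. SK-N-BE(2)c with ASO2 had 6 of 9 higher and 0 lower, against 33.6% and 33.4%, and FOSL2, JUN and JUND were not called. With ASO10 there 6 were higher and 3 (FOSL2, JUND and SGK1) lower, against 27.8% and 31.1%. ASO and NCA libraries did not overlap in 9 of 9 and 9 of 9 members in IMR32, against 27.6% and 30.4% of all genes. They did not overlap in 9 and 8 of 10 in NGP, against 62.4% and 59.1%, and in 8 and 8 of 9 in SK-N-BE(2)c, against 69.3% and 64.7%. FOS, JUNB, EGR1 and IER2 were called higher in all 6 contrasts, and 3.05% of the 11594 genes tested in all 3 lines were so. The 2 contrasts of a line share their NCA libraries.

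**Figure D3:**
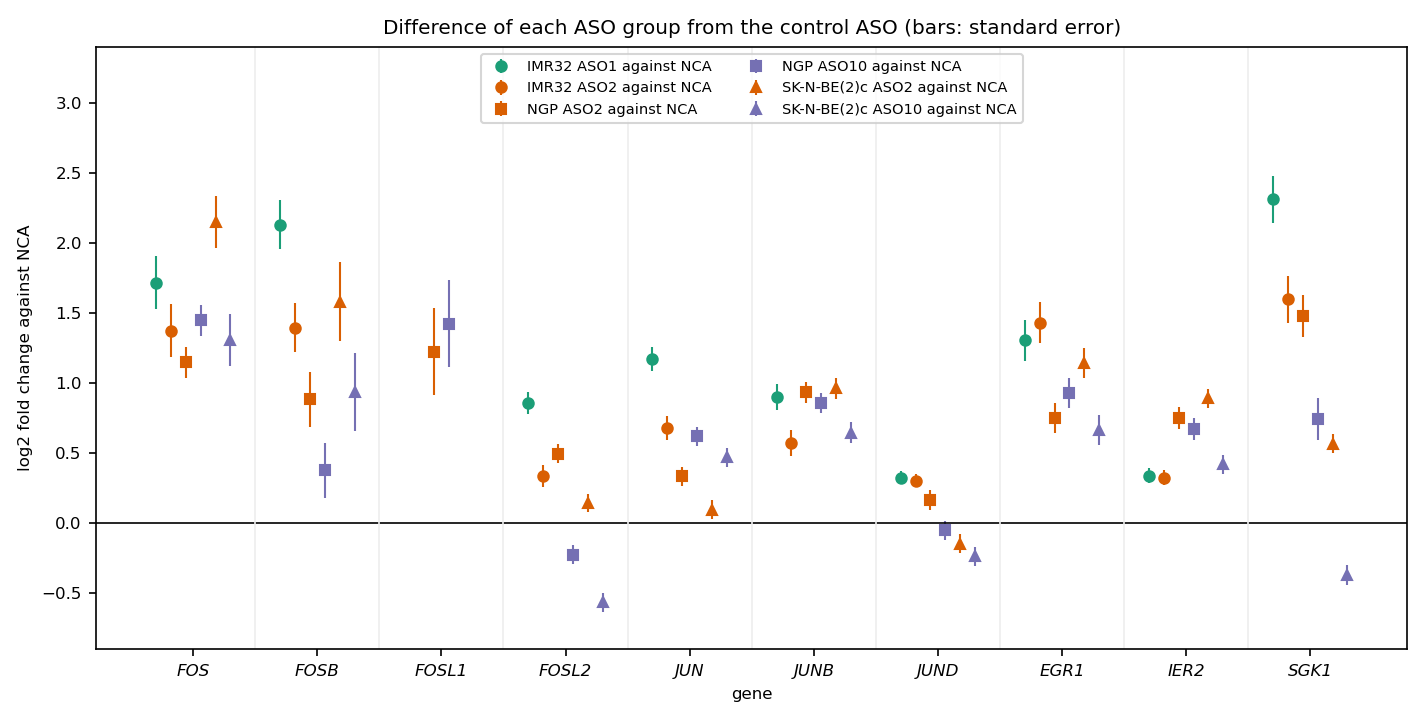
Log2 fold change against NCA for each gene and each of the 6 ASO groups, with bars of 1 standard error; colour gives the ASO and marker shape the line. FOS runs from 1.15 to 2.15, and SGK1 from -0.37 to 2.31.

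Some control libraries stood low together. Replicate 3 of NCA was the lowest of its group in 8 of the 9 members counted (all but FOSL1) in NGP, and in 8 of 9 in SK-N-BE(2)c. In IMR32, replicate 1 was the lowest in 8 of 9 members with ASO1 and in 7 of 9 with ASO2, and replicate 3 of ASO10 was the lowest in 7 of 9 in SK-N-BE(2)c. Leaving out NCA replicate 3 lowered the FOS difference in NGP from 1.15 to 0.96 with ASO2 and from 1.45 to 1.26 with ASO10. The same step in SK-N-BE(2)c lowered it from 2.15 to 1.84 and from 1.31 to 1.00. The column names spell the control of replicate 1 differently from that of replicates 2 and 3 in NGP and SK-N-BE(2)c, and leaving out replicate 1 of NCA gave 1.25 and 1.55 for FOS in NGP and 2.34 and 1.50 in SK-N-BE(2)c.

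The ASOs against NESPR were then compared with each other within a line. The choice of genes did not use this contrast directly, but it shares its ASO libraries with the contrasts that did. Its p-values and counts of members are therefore a description. In IMR32, 5 of the 9 members tested were higher with ASO1 than with ASO2, against 9.17% of all genes tested, and 0 were lower, against 12.8%. SGK1 differed by 0.71 on the log2 scale (95% interval 0.36 to 1.07, adjusted p = 0.0043) and FOSB by 0.73 (0.37 to 1.10, adjusted p = 0.0047). FOSL2 differed by 0.52 (0.36 to 0.68, adjusted p = 6.9e-05) and JUN by 0.49 (0.32 to 0.67, adjusted p = 0.00026). JUNB differed by 0.33 (0.13 to 0.52, adjusted p = 0.0147). The JUNB call was lost without ASO1 replicate 2 (0.30), ASO1 replicate 3 (0.25) or ASO2 replicate 4 (0.28), and its adjusted p ran from 0.00047 to 0.0733 over 14 alternatives. The other 4 did not pass: FOS at 0.34 (-0.05 to 0.74, adjusted p = 0.218), JUND at 0.02 (-0.07 to 0.12), IER2 at 0.01 (-0.09 to 0.12) and EGR1 at -0.13 (-0.43 to 0.18).

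In NGP, ASO2 and ASO10 differed in 6 of 10 members, near the share of all genes tested (58.6%). With ASO2 4 were higher, against 30.6% of all genes, and 2 were lower, against 28%. SGK1 was 0.73 higher with ASO2 (95% interval 0.42 to 1.04, adjusted p = 0.00017), and FOSL2 was 0.72 higher (0.58 to 0.86, adjusted p = 1.2e-09). FOSB was 0.51 higher (0.10 to 0.91, adjusted p = 0.0296) and JUND 0.22 higher (0.07 to 0.36, adjusted p = 0.0101). FOS was lower with ASO2, at -0.30 (-0.52 to -0.08, adjusted p = 0.0205), as was JUN, at -0.29 (-0.42 to -0.15, adjusted p = 0.00065). FOSL1, JUNB, EGR1 and IER2 did not pass, with intervals of -0.84 to 0.44, -0.08 to 0.23, -0.40 to 0.04 and -0.09 to 0.24. The FOS call was lost without ASO2 replicate 1 (-0.29), ASO2 replicate 3 (-0.27) or ASO10 replicate 2 (-0.27), with an adjusted p of 0.0041 to 0.0819 over 12 alternatives. FOSB lost its call without ASO2 replicate 1 (0.48) or 2 (0.47), without ASO10 replicate 1 (0.42) or 2 (0.50), after rescaling (0.45), without the filter on low genes (0.51) and with DESeq2 (0.49), with an adjusted p of 0.024 to 0.111. JUND lost it without ASO10 replicate 3 (0.17) and after rescaling (0.16), with an adjusted p of 0.0065 to 0.06.

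In SK-N-BE(2)c the same contrast was past the threshold in 8 of 9 members, against 65.4% of all genes tested. With ASO2 7 were higher (34.6% of all genes) and 1, JUN, was lower (30.8%). SGK1 was 0.94 higher with ASO2 (95% interval 0.79 to 1.08, adjusted p = 2.8e-12), FOS 0.84 higher (0.46 to 1.22, adjusted p = 0.00027) and FOSL2 0.71 higher (0.57 to 0.85, adjusted p = 3.2e-10). FOSB was 0.64 higher (0.07 to 1.22, adjusted p = 0.046), EGR1 0.48 (0.26 to 0.70, adjusted p = 0.00027), IER2 0.47 (0.33 to 0.61, adjusted p = 6e-07) and JUNB 0.32 (0.17 to 0.47, adjusted p = 0.00044). JUN stood at -0.37 (-0.51 to -0.24, adjusted p = 1.7e-05). JUND did not pass, at 0.09 (-0.05 to 0.23, adjusted p = 0.255), though it did without ASO10 replicate 1 (0.17), and its adjusted p ran from 0.0408 to 0.814. FOSB lost its call without ASO2 replicate 1 (0.63) or 2 (0.57), without ASO10 replicate 2 (0.68) or 3 (0.47), after rescaling (0.53), without the filter (0.64) and with DESeq2 (0.62), with an adjusted p of 0.0254 to 0.193. FOSL2 and SGK1 were thus higher with ASO2, and JUN lower, in both lines, while FOS was lower with ASO2 in NGP and higher with it in SK-N-BE(2)c.

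**Figure D4:**
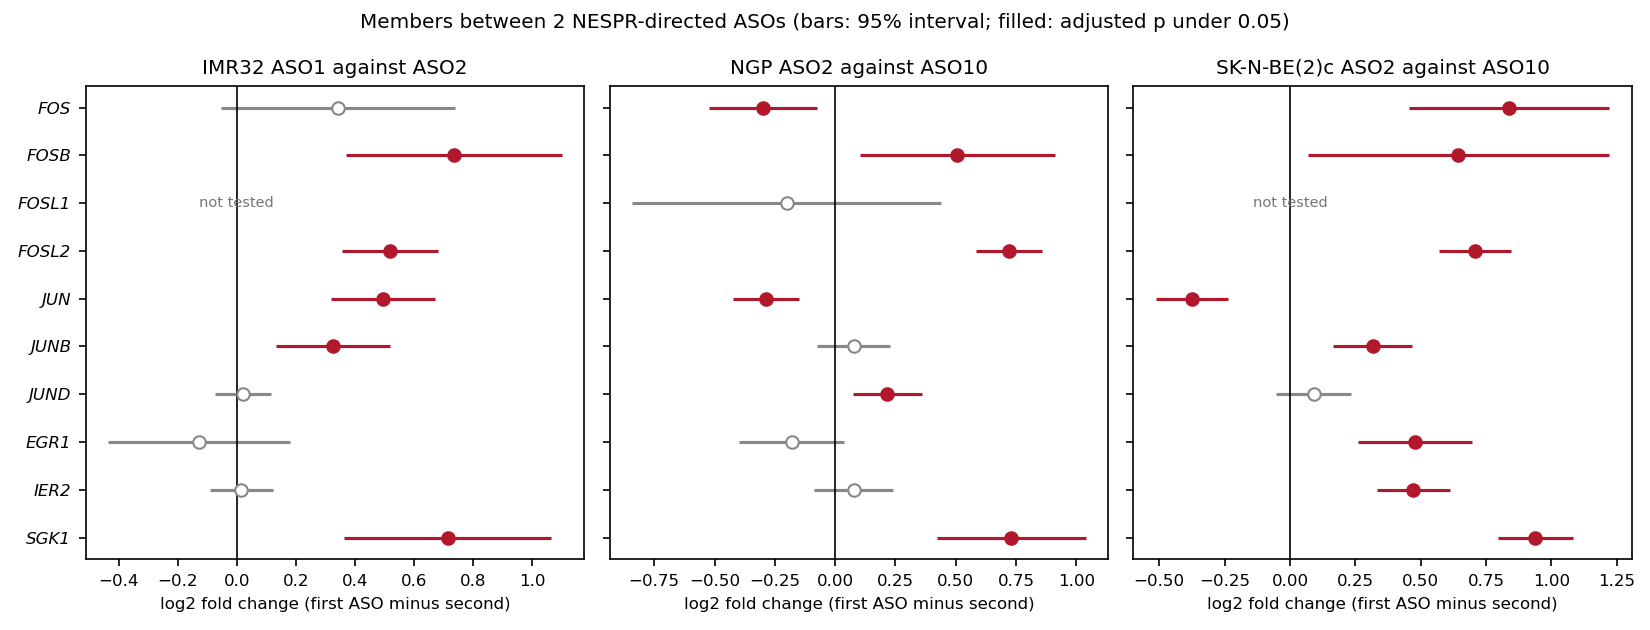
Log2 fold change between the ASOs against NESPR within each line (first named minus second), with 95% intervals; filled points passed an adjusted p of 0.05. FOSL2 and SGK1 lie to the right in all 3 panels, and JUN lies to the right in IMR32 and to the left in NGP and SK-N-BE(2)c.

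NGP and SK-N-BE(2)c were scaled jointly, so their control levels could be compared. Between NCA-treated cells of the 2 lines 7 of 10 members differed, against 77% of all genes tested. In NGP 3 were higher, against 39.8%, and 4 lower, against 37.3%. FOS was 1.85 higher in NGP on the log2 scale (95% interval 1.45 to 2.24, adjusted p = 4.5e-09) and FOSB 1.43 higher (0.88 to 1.98, adjusted p = 3.2e-05). SGK1 was lower in NGP, at -3.32 (-3.55 to -3.09, adjusted p = 1.9e-18), as were JUNB at -0.70 (adjusted p = 1.3e-08), FOSL2 at -0.26 (adjusted p = 0.00049) and JUN at -0.22 (adjusted p = 0.0046). FOSL1 counts among the 3 that were higher, but it entered the joint fit only through NGP, and the 3 control libraries of SK-N-BE(2)c held 0, 3 and 2 reads of it against 11, 9 and 13 in NGP, so no size is given. JUND did not pass, at 0.02 (-0.13 to 0.17). EGR1, at 0.25 (0.01 to 0.50, adjusted p = 0.0578), passed without NGP NCA replicate 3 (0.35), without SK-N-BE(2)c NCA replicate 2 (0.36), after rescaling (0.28) and with DESeq2 (0.26), with an adjusted p of 0.0127 to 0.323. IER2, at -0.16 (-0.33 to 0.00, adjusted p = 0.0709), passed without NGP NCA replicate 1 (-0.23) or 2 (-0.21), without SK-N-BE(2)c NCA replicate 3 (-0.22) and with edgeR (-0.19), with an adjusted p of 0.017 to 0.639.

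Whether an ASO's difference from NCA was itself larger in one line was tested as an interaction. Both of its parts are contrasts that chose the genes, so the values, p-values and counts of members are a description. For ASO2, 4 of 10 members differed between the lines, against 16.7% of all genes tested. The value was above 0 for 1 of them (8.79% of all genes) and below 0 for 3 (7.95%). The difference of FOS was larger in SK-N-BE(2)c than in NGP by 1.00 (95% interval 0.44 to 1.56, adjusted p = 0.0134). It was smaller in SK-N-BE(2)c for SGK1, at -0.91 (-1.24 to -0.58, adjusted p = 0.00042), FOSL2, at -0.35 (-0.53 to -0.17, adjusted p = 0.0075), and JUND, at -0.31 (-0.53 to -0.09, adjusted p = 0.0448). The JUND call was lost when any of 10 of the 12 libraries was left out, the exceptions being NGP NCA replicate 2 and SK-N-BE(2)c ASO2 replicate 1, with values of -0.32 to -0.25 and an adjusted p of 0.0112 to 0.119 over its alternatives, and it was also lost without the filter on low genes (-0.31). For ASO10, 2 of 10 differed, against 16.9% (8.09% above 0 and 8.78% below): SGK1 at -1.12 (-1.44 to -0.79, adjusted p = 4.2e-05) and FOSL2 at -0.34 (-0.52 to -0.16, adjusted p = 0.0101). FOS did not pass with ASO10, at -0.14, with an interval of -0.70 to 0.42. FOSL1 passed with neither ASO and entered the joint fit only through NGP. Leaving out 1 of 3 control libraries took other members past the threshold for ASO2. Without SK-N-BE(2)c NCA replicate 2, FOSB (1.04 in place of 0.70, adjusted p from 0.0464 to 0.505 over its alternatives) and EGR1 (0.51 in place of 0.40, 0.0392 to 0.293) passed. Without NGP NCA replicate 3, EGR1 (0.49) and IER2 (0.27 in place of 0.14, adjusted p from 0.0397 to 0.756) passed. JUN passed without NGP NCA replicate 2 (-0.31 in place of -0.24, adjusted p from 0.0272 to 0.232) and also after rescaling (-0.31).

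A list of 36 other immediate early genes was read beside the members. It was chosen with earlier results of these data known, and it is given as counts. Against NCA, 29 of 32 genes tested rose and 0 fell with ASO1 in IMR32, and 31 of 32 rose with ASO2. In NGP 29 of 30 rose with ASO2 and 22 of 30 with ASO10, and 0 fell. In SK-N-BE(2)c 24 of 28 rose and 2 fell with ASO2, and 16 rose and 5 fell with ASO10. Among all genes tested 13.6%, 17.6%, 30.6%, 26.8%, 33.6% and 27.8% were higher in the same order of contrasts. The shares of all genes that were lower were 14.4%, 14.8%, 28.1%, 27.6%, 33.4% and 31.1%. The median log2 fold change of the list was 0.76, 0.71, 0.81, 0.51, 0.80 and 0.36 in that order, while the median of all genes tested lay between -0.03 and 0.01.

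**Figure D5:**
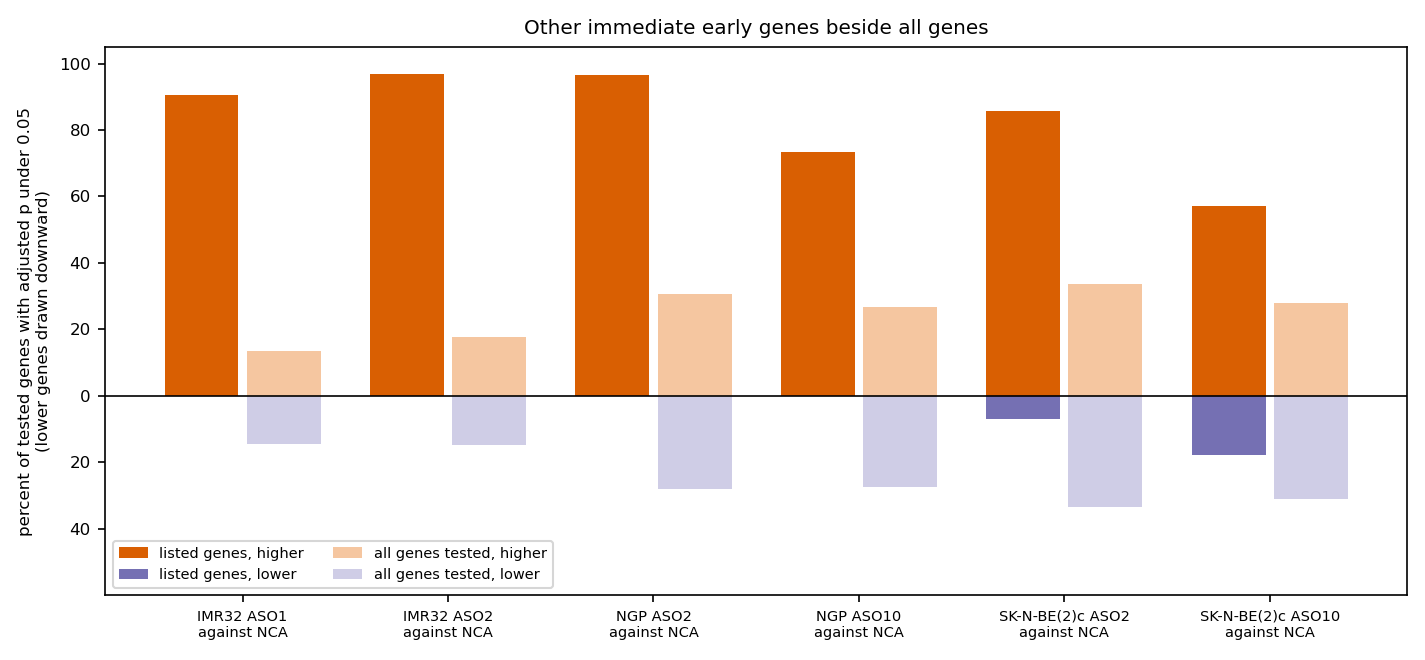
Percent of 36 other immediate early genes (those tested in each line) and of all genes tested with an adjusted p under 0.05 against NCA, higher genes drawn upward and lower genes downward, for the 6 contrasts. The listed genes reach 96.9% higher with ASO2 in IMR32 and 57.1% with ASO10 in SK-N-BE(2)c, where 5 of 28 were lower.

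Of these genes 11 rose in all 6 contrasts, against 3.05% of the 11594 genes tested in all 3 lines. The 11 included ATF3, a bZIP protein that pairs with JUN (0.63 to 1.49 on the log2 scale), and SRF, which binds CArG boxes (0.27 to 1.02). NR4A3, an orphan nuclear receptor, rose by 0.44 to 3.06, with the top value for ASO2 in SK-N-BE(2)c, where its mean was 149 normalized counts against 17 with NCA. GADD45B, a stress-response gene, rose by 0.67 to 2.55, the top value resting on a mean of 3.38 normalized counts in NCA-treated NGP. PPP1R15A, which lets translation resume after stress, rose by 0.41 to 1.70, and GADD45A by 0.61 to 1.03. IER5, IER5L, KLF10, BTG1 and NFKBIA also rose in all 6, with values between 0.27 and 1.39. IER3 rose in 5, by 0.75 to 2.35, and stood at 0.32 with ASO10 in SK-N-BE(2)c. MAFF, a small MAF protein, rose in 4, by 0.65 to 0.91, stood at -0.31 with ASO10 in NGP and fell by 0.83 with ASO10 in SK-N-BE(2)c. The genes that fell were ZFP36L1 and RHOB (-0.15) with ASO2 in SK-N-BE(2)c, and MAFF, TRIB1 (-0.70), PLK3 (-0.52), BTG2 (-0.29) and RHOB (-0.22) with ASO10, named after their values were seen. ZFP36L1 passed the filter on low genes through its ASO10 libraries (mean 28.2), and its call compares a mean of 0.91 normalized counts with ASO2 and 4.96 with NCA.

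Between the ASOs, the same list differed in IMR32 in both directions, with 5 of 32 higher and 7 lower with ASO1 than with ASO2, against 9.17% and 12.8% of all genes. In NGP 13 of 30 were higher and 6 lower with ASO2 than with ASO10, against 30.6% and 28% of all genes, and in SK-N-BE(2)c 20 of 28 were higher and 1 lower, against 34.6% and 30.8%. The difference from NCA was larger in SK-N-BE(2)c than in NGP for 3 of 31 genes and smaller for 3 with ASO2, near the 8.79% and 7.95% of all genes. With ASO10 it was larger for 2 and smaller for 13, against 8.09% and 8.78%. NR4A3 had a larger difference with ASO2 in SK-N-BE(2)c, by 1.87 (adjusted p = 0.00022). ATF3 had a smaller one with both, at -0.53 with ASO2 (adjusted p = 0.0139) and -0.78 with ASO10 (adjusted p = 0.00077). With ASO10 the values were -1.88 for GADD45B (adjusted p = 0.0046), -1.05 for IER3 (adjusted p = 0.0095) and 0.88 for PPP1R15A (adjusted p = 0.00033). The GADD45B value rests on its low mean in NCA-treated NGP, given above, so its size is uncertain.

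The genes of the other bZIP proteins went both ways. Of 15 tested in IMR32, 6 rose and 2 fell with ASO1, and 5 rose and 1 fell with ASO2. Of 13 in NGP, 7 rose and 3 fell with ASO2, and 5 rose and 3 fell with ASO10. Of 13 in SK-N-BE(2)c, 6 rose and 4 fell with ASO2, and 4 rose and 2 fell with ASO10. The shares of all genes that were higher and lower were 13.6% and 14.4%, 17.6% and 14.8%, 30.6% and 28.1%, 26.8% and 27.6%, 33.6% and 33.4%, and 27.8% and 31.1% in the same order, so several of these counts lie near them. CREB1, which binds TGACG, fell in 5 contrasts, by 0.48 to 1.12, and stood at -0.12 with ASO2 in IMR32. CREB5 fell in 5 as well, and stood at -0.53 with ASO10 in SK-N-BE(2)c. ATF2, a partner of JUN, rose in 3, by no more than 0.32.

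Kinases and factors that act on FOS and JUN were tested for all 32 listed genes in each line. With ASO1 and ASO2 in IMR32, 8 and 10 rose while 7 and 5 fell. In NGP 10 and 7 rose while 15 fell with each of ASO2 and ASO10, and in SK-N-BE(2)c 8 and 4 rose while 14 and 15 fell. Against the shares of all genes just given, the 10 of 32 that rose with ASO2 in NGP lie at the 30.6% of all genes. The list's median log2 fold change was between -0.27 and 0.09. MAP2K7, which activates JNK, rose in all 6 contrasts, by 0.15 to 0.73. MAP2K5, MAP3K4 and RPS6KA5 fell in all 6, MAP2K5 by 0.23 in IMR32 with ASO1 and by 1.84 in NGP with ASO10. MAPK8, the gene of JNK1, fell with ASO10 in both lines (-1.06 and -1.29) and did not pass in the 4 other contrasts, at -0.17 to 0.11. MAPK10, the gene of the neuronal JNK3, fell in 5 contrasts and stood at -0.13 with ASO2 in IMR32, and MAP3K5 fell in 4, by 0.85 to 1.91. ELK1, an SRF partner, rose in 2 contrasts, those of ASO2 in NGP (0.25) and SK-N-BE(2)c (0.46).

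Of 27 textbook AP-1 targets, 13 to 16 were expressed enough to test. In IMR32, 2 of 13 rose and 1 fell with ASO1, and 6 rose and 0 fell with ASO2. In NGP, 8 of 16 rose and 3 fell with ASO2, and 6 rose and 6 fell with ASO10. In SK-N-BE(2)c, 9 of 15 rose and 2 fell with ASO2, and 5 rose and 2 fell with ASO10. The shares that rose are read against 13.6%, 17.6%, 30.6%, 26.8%, 33.6% and 27.8% of all genes in the same contrasts. Those that fell are read against 14.4%, 14.8%, 28.1%, 27.6%, 33.4% and 31.1%. The counts that rose with ASO1 in IMR32 and with ASO10 in SK-N-BE(2)c lie near their shares. LMNA, which encodes nuclear lamin A, rose in all 6, by 0.26 to 0.70. HBEGF, a growth factor, rose in 5, by 0.56 to 1.41, and VEGFA rose in 5, by 0.22 to 1.21. MMP2, a collagenase, went both ways: it fell by 0.79 with ASO1 in IMR32 and rose by 0.59 there with ASO2, rose by 0.70 and 0.43 with ASO2 in NGP and SK-N-BE(2)c, and fell by 0.40 and 0.11 with ASO10.

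The kinases near SGK1 and genes that glucocorticoids induce went both ways in each contrast. Of 15 tested in IMR32, 2 rose and 4 fell with ASO1, and 3 rose and 3 fell with ASO2. Of 12 in NGP, 6 rose and 5 fell with ASO2, and 3 rose and 6 fell with ASO10, and of 10 in SK-N-BE(2)c 3 rose and 4 fell with each. Among all genes 13.6%, 17.6%, 30.6%, 26.8%, 33.6% and 27.8% were higher in the same order. The shares of all genes that were lower were 14.4%, 14.8%, 28.1%, 27.6%, 33.4% and 31.1%. The counts that rose in IMR32, in SK-N-BE(2)c and with ASO10 in NGP lie near these shares. PER1 rose in all 6 contrasts, by 0.41 to 1.21. TSC22D3, a glucocorticoid-induced gene, rose with ASO2 in NGP (1.10) and SK-N-BE(2)c (0.97), and fell with ASO10 in both (-0.30 and -0.25) and with ASO1 in IMR32 (-0.35). NR3C1, the glucocorticoid receptor gene, rose by 0.79 with ASO2 and fell by 0.95 with ASO10 in NGP, and was not tested in SK-N-BE(2)c, where its group means were 0.62 to 1.33 normalized counts. FOXO3, whose protein SGK1 can phosphorylate, fell in 4 contrasts and NEDD4 in 3.

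The genes whose levels over the 30 libraries ran most like those of FOS, after each line's mean was removed, were REXO4 (Pearson correlation 0.94), NXF1 (0.94), NPRL2 (0.92), GADD45A (0.92) and IER5 (0.92), out of 11594 genes. For SGK1 they were ADAMTS1 (0.91), ID2 (0.91), KLHL21 (0.90), DUSP1 (0.90) and NEFH (0.90). These correlations describe the libraries, which share groups and controls within a line, and carry no test.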

How the data were processed

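RNA-seq was measured in 30 libraries of 3 neuroblastoma lines. The deposited values are a signal, gene counts that the authors had divided by 1 size factor per library: every value was a whole multiple of its library's step (tolerance 0.01), so whole reads could be recovered for 100% of values. The submitters' processing notes name FastQC 0.11.8, cutadapt 1.18, STAR 2.6.0, HTSeq 0.6.1, DESeq2 1.42.0, hg19 and GRCh37, with no role or order. Per the labels, 2 library kits were used, and which library had which, the strand setting, the annotation and the harvest time are not given in the sources used here.

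IMR32 was scaled on its own and NGP with SK-N-BE(2)c jointly. Entries with no Ensembl identifier (174 in IMR32, 0.172% of its values) were left out, and 0 columns of per-sample values went unused. log2(value + 1) was fitted with limma 3.58.1 (R 4.3.3, variance trend, 1 mean per group) on genes with a mean of at least 10, which left 17309 genes in IMR32, 14440 in NGP, 13556 in SK-N-BE(2)c and 14537 in a joint fit of NGP and SK-N-BE(2)c for contrasts between lines. P-values were adjusted by Benjamini and Hochberg over all genes of a fit, and called at 0.05. A fold change is that of value + 1, so it is too small for low genes. The fit was tested on simulated data. Alternatives were a pseudocount of 8, no filter, rescaling to the same total, a replicate block, each replicate left out, and edgeR 4.0.16 (quasi-likelihood, TMM) and DESeq2 1.42.0 on the recovered reads. edgeR called 4897 genes for ASO1 and 5630 for ASO2 against NCA in IMR32, 8495 for ASO2 and 7928 for ASO10 in NGP, and 9080 and 8073 in SK-N-BE(2)c. Levels per kb used the length of all annotated exons of a gene in GENCODE 29, merged over its transcripts. A gene with exons unused in these cells is thus placed too low.

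The members and gene lists were chosen with earlier results of these data known. All members are named. From the other lists come genes called with 1 sign in all 6 contrasts against NCA, up to 4 per list with the largest mean absolute change among genes tested in every line, and ATF2, ATF3, MAFF, SRF, ELK1, MAPK8, MAP2K7, NR3C1 and TSC22D3 by role; 1 gene that this rule names is not reported here. For FOS and SGK1, the 5 most correlated genes are named.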

Additional observations from a re-analysis of the deposited data

Results flagged for a closer look

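In groups of 4 libraries, FOS in replicate 1 of ASO2-treated IMR32 (76.3 normalized counts, the others 128 to 141) and JUN in the same library (1499.8, the others 1875 to 1941) lay far below their group. Of 27 groups of 4 examined this way 2 stood out, and chance gives about 1 in 20.

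The difference from NCA was not the same in SK-N-BE(2)c and NGP, by limma's interaction test, for 4 members with ASO2: FOS (1.00 larger in SK-N-BE(2)c), FOSL2 (-0.35), JUND (-0.31) and SGK1 (-0.91). With ASO10 it differed for FOSL2 (-0.34) and SGK1 (-1.12). These are log2 values, SK-N-BE(2)c minus NGP, and the JUND value failed the threshold when any of 10 of the 12 libraries was left out. All of these values are a description, since both parts of the interaction are contrasts that chose the genes.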

How the results depend on the processing

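Of 822 alternative values of tested members, 772 kept their side of the threshold, 33 lost the call and 17 gained it. No called value changed sign, while 12 values that passed in neither setting did, at -0.07 to 0.05. Of 708 values against NCA, 6 moved by more than the replicate spread: FOSL1 with ASO10 in NGP (1.02 with a pseudocount of 8) and, rescaled to the same total for ASO2 in SK-N-BE(2)c, FOSL2 (0.01), JUN (-0.04), JUND (-0.28), IER2 (0.76) and SGK1 (0.43). That rescaling moved the median of all genes there from -0.02 to -0.15 and the share of calls that were higher from 50.2% to 38.4%. The share also moved from 41.8% to 59.8% for ASO1 against ASO2 in IMR32, from 52.9% to 42.3% for ASO2 against ASO10 in SK-N-BE(2)c and from 52.5% to 32.9% for the ASO2 interaction. The cause was not tested. FOSL1 passed for the ASO10 interaction at a pseudocount of 8, but it entered the joint fit only through NGP, so no size is given. Ranked by deposited value instead of per kb, 5 of 10 members (IMR32), 5 (NGP) and 3 (SK-N-BE(2)c) took another rank in NCA cells. Low FOSL1 counts limit its precision.

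Same-numbered replicates did not all deviate together: deviation correlations ran from -0.0646 to 0.332, and in none of 9 group pairs were all above 0.1 or every sample closest to its own number. In IMR32, replicates 1 and 3 were above 0.1 in all 3 group pairs. With a replicate block, calls went from 4850 to 6609, 5607 to 7419 and 3795 to 5677 in IMR32 (ASO1 and ASO2 against NCA, ASO1 against ASO2), and stood at 8579, 7963 and 8556 for NGP, 9236, 8148 and 8980 for SK-N-BE(2)c, and 2614 and 2585 for the interactions of ASO2 and ASO10. The block brought FOS between ASO1 and ASO2 in IMR32 past the threshold (0.34, adjusted p = 0.0395, range 0.0395 to 0.629).

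With each replicate left out, called genes ran from 4020 to 4746, 4539 to 5672 and 2727 to 4441 in IMR32, 7615 to 8297, 6866 to 7682 and 7725 to 7953 in NGP, 8512 to 8689, 7094 to 7696 and 8216 to 8465 in SK-N-BE(2)c, 10728 to 10869 between controls, and 1789 to 2994 and 1644 to 3138 for the interactions.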
